A study of Brassica oleracea with 8 samples.

Results

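The iron genes described here were the ferritins LSC30 (Bo3g001360, ferritin-1) and FER3 (Bo2g156090, ferritin-3) and the transcription factor gene bHLH100 (Bo4g013080). These 3 genes carried an iron role in the study's list of nutrition genes. The same gene was read in each of 8 RNA-seq libraries, out of 60586 annotated features, and all 3 were among the 28126 genes with enough counts to be tested. The study compared *Brassica oleracea* kale (labelled var. viridis, 3 libraries), cabbage (labelled var. sabadua, 2 libraries) and TO1000 (labelled var. alboglabra, 3 libraries). The paper instead names the kale accession as var. acephala Red Winter and the cabbage accession as var. capitata. TO1000 is a fast-flowering, fully homozygous line, and reads of every library were mapped to its genome. Each library pooled the upper stem, immature leaves and meristems of 8 plants at day 24, from plants of all morphotypes raised together in 1 chamber with no treatment. Each morphotype was a single accession, so morphotype and accession cannot be told apart.

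Ferritins are protein shells that hold iron inside plastids, and in *Arabidopsis* their transcripts accumulate when iron is plentiful. bHLH100 belongs to a small group of *Arabidopsis* bHLH transcription factors whose transcripts accumulate when iron is short. The name LSC30 comes from a leaf senescence clone of *Brassica napus*, and ferritins also take part in limiting oxidative damage. The question of these comparisons was how transcripts of iron storage and of the iron deficiency regulator stood to each other in each library. Iron itself was not measured in the data used here.

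Library totals ran from 3016197 to 7539991 counts on genes, and no pair of libraries agreed within sampling noise. Libraries of 1 morphotype lay closer to each other (distance in log2 scaled counts over all tested genes, 70.6 to 113.6) than libraries of different morphotypes (224.2 to 244.4). Genes were called differentially expressed (DEGs) by edgeR's quasi-likelihood test at a Benjamini-Hochberg adjusted p below 0.05 with a log2 fold change beyond 1 or -1. By that rule 27.7% of tested genes were DEGs in the kale–TO1000 comparison, 25.7% in kale–cabbage and 26.2% in cabbage–TO1000. The study had chosen all 3 iron genes as DEGs of these same libraries, so their tests below are not independent evidence of a difference.

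LSC30 was highest in cabbage, intermediate in kale and lowest in TO1000. FER3 was not distinguished between kale and cabbage, whose libraries overlapped, and gave 2 counts in TO1000. bHLH100 was found in all 3 kale libraries, at very different levels, and gave 4 counts in TO1000 and 0 in cabbage. Kale was the only morphotype in which all 3 genes had counts in every library. In whole shoot tips fewer cells of a type and less RNA per cell cannot be told apart.

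LSC30, the first of the ferritins, was counted 348 and 892 times in the cabbage libraries. The 3 kale libraries had 433, 432 and 230 LSC30 counts, and the TO1000 libraries had 142, 207 and 142. Scaled to library size these were 126 and 149 CPM (counts per 1000000 counts of tested genes) in cabbage, 59.5, 77.5 and 55.0 CPM in kale, and 22.4, 28.3 and 21.0 CPM in TO1000. The lowest cabbage library lay above the highest kale library, and the lowest kale library above the highest TO1000 library. Such separation was common: libraries did not overlap for 59% of tested genes in kale–cabbage and 52.8% in kale–TO1000. Cabbage averaged 138 ± 16.6 CPM of LSC30 (SD, n = 2). Kale averaged 64.0 ± 11.9 CPM (SD, n = 3) and TO1000 23.9 ± 3.89 CPM (SD, n = 3).

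LSC30 was a DEG in all 3 comparisons. It was higher in kale than in TO1000 by 1.42 on the log2 scale (SE 0.19, edgeR adjusted p = 2.09e-05). In cabbage it was higher than in TO1000 by 2.53 (SE 0.20, edgeR adjusted p = 9.97e-08). Between kale and cabbage the log2 difference was -1.11 (SE 0.20, edgeR adjusted p = 3.52e-04), with a 95% interval from -1.52 to -0.69 that reached inside the threshold of -1. This last call rested on its fold: without cabbage replicate 2 the difference was -0.97 (adjusted p = 0.00907), and without kale replicate 3 it lay at the threshold itself. A test against a 2-fold change instead of against no change gave an adjusted p of 0.486 for kale–cabbage. Changes of this size were common in these libraries: 21.4% of tested genes had an absolute kale–TO1000 difference at least as large, 29.3% a kale–cabbage difference and 11.3% a cabbage–TO1000 difference.

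FER3, the second ferritin, was counted 67, 25 and 22 times in the kale libraries and 16 and 41 times in the cabbage libraries. In TO1000 replicate 1 there were 2 counts, and replicates 2 and 3 had 0. The kale levels of 9.21, 4.48 and 5.26 CPM lay on both sides of the cabbage levels of 5.79 and 6.87 CPM. TO1000 stayed at 0.315 CPM or below, and a count of 0 there allowed at most 0.504 CPM in replicate 2 and 0.544 CPM in replicate 3 (exact Poisson 95% limits). For FER3 the kale mean was 6.32 ± 2.54 CPM (SD, n = 3), the cabbage mean 6.33 ± 0.763 (SD, n = 2) and the TO1000 mean 0.105 ± 0.182 (SD, n = 3).

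FER3 was a DEG in both comparisons with TO1000. It had enough counts to be tested only through kale and cabbage, so these tests were conditioned on its being high there. Summed over libraries and divided by their sizes, FER3 counts were 68.4 times as frequent in kale as in TO1000 (114 against 2 counts, counting interval 18.5 to 572) and 66.8 times as frequent in cabbage as in TO1000 (57 against 2 counts, 17.7 to 565). The fitted log2 differences were 5.75 for kale–TO1000 (SE 0.65, edgeR adjusted p = 4.75e-06) and 5.75 for cabbage–TO1000 (SE 0.70, edgeR adjusted p = 1.06e-05). All FER3 counts of TO1000 came from replicate 1, and without that library both fitted values rose to 8.20 (adjusted p = 1.92e-05 and 3.10e-05), a value that then depends on the fit's handling of 0 and is no bound. Few genes differed from TO1000 as much as FER3 did, 2.82% of tested genes in kale–TO1000 and 3.34% in cabbage–TO1000. Kale and cabbage were not distinguished for FER3: the log2 difference was 0.00 (SE 0.42, 95% interval -0.89 to 0.90, edgeR adjusted p = 0.997). That interval still holds differences of close to 2-fold in either direction. The study listed FER3 with DEGs shared by all morphotypes, a heading its text uses for genes differing in every pairwise comparison. The kale–cabbage result here departs from that listing, and with DESeq2, the study's tool, FER3 was not called there either (log2 difference 0.002). FER3 and LSC30 are paralogous ferritins, and reads from stretches they share with each other or with further ferritin copies could have been assigned to the wrong copy or not counted.

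bHLH100, the iron deficiency regulator, was counted 146, 28 and 8 times in kale replicates 1, 2 and 3. TO1000 had 2, 2 and 0 counts of it, and both cabbage libraries had 0. The kale levels were 20.1, 5.02 and 1.91 CPM, a range of 10.5-fold, for a mean of 9.003 ± 9.71 CPM (SD, n = 3). The lowest kale library still stood above the highest TO1000 library, at 0.315 CPM, but their counting intervals overlapped: 0.826 to 3.77 CPM for kale replicate 3 and up to 1.14 CPM for TO1000 replicate 1. Kale and TO1000 libraries did not overlap for 52.8% of all tested genes. In cabbage the 0 counts allowed at most 1.34 CPM in replicate 1 and 0.618 CPM in replicate 2. All reads were mapped to the TO1000 genome, so a cabbage copy too diverged to map, or missing, cannot be told apart from a gene without transcripts.

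bHLH100 was a DEG in both kale comparisons. It had enough counts to be tested only through its kale libraries, and without kale replicate 1 or 2 it no longer did. Its kale tests were therefore conditioned on its being high in kale. Its kale–TO1000 log2 difference was 5.44 (SE 0.90, interval of the fit 3.53 to 7.35, edgeR adjusted p = 2.31e-04). Its summed counts were 54.6 times as frequent in kale (182 against 4 counts, counting interval 21.0 to 203). Counting intervals of summed counts cover no spread among libraries, which the interval of the fit includes. Against cabbage the edgeR adjusted p was 0.00111. Summed kale counts stood 31.1-fold above a floor of 3 counts over the cabbage libraries (0.344 CPM). That figure covers no spread among kale libraries, and kale replicate 3, at 1.91 CPM, stood closest to the floor. Kale replicate 1 held most of the kale counts. Without replicate 1 the kale–TO1000 log2 difference was 3.99 (edgeR adjusted p = 0.00177), and the ratio of counts was 18.9 (36 against 4 counts, 6.76 to 73.0). The figure against the cabbage floor fell to 10.7-fold (edgeR adjusted p = 0.00257). A difference as large as that of bHLH100 in kale–TO1000 was seen in 3.17% of tested genes. Cabbage and TO1000 were not distinguished for bHLH100 (edgeR adjusted p = 0.453): at the TO1000 rate, 1.71 counts would have been expected in cabbage, where 0 were found.

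Thus 3 of 3 iron genes were DEGs in kale–TO1000, all higher in kale, where 14.2% of all tested genes were called higher in kale. In cabbage–TO1000 both ferritins, 2 of 3 genes, were called higher in cabbage, against 11.5% of all tested genes. In kale–cabbage 2 of 3 were called in opposite directions, LSC30 lower and bHLH100 higher in kale. In that comparison 25.7% of all tested genes were called in either direction. These counts were fixed in part by the choice of the genes as DEGs, and they were not read against the background as a result.

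**Figure D1:**
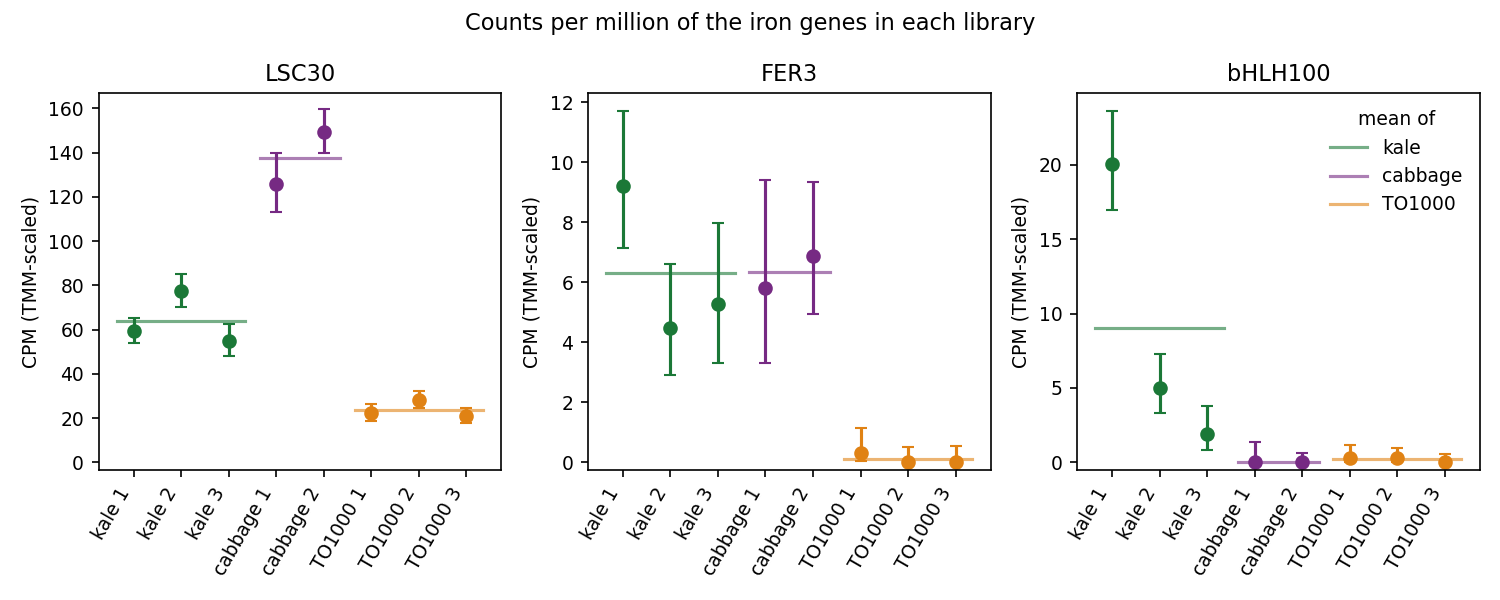
Level of LSC30, FER3 and bHLH100 in each library, in CPM scaled by edgeR's TMM factors. Points are single libraries, bars are exact Poisson 95% intervals that cover counting error only, and horizontal lines are morphotype means. LSC30 separates into cabbage (126 and 149 CPM), kale (55.0 to 77.5) and TO1000 (21.0 to 28.3), FER3 overlaps between kale and cabbage, and bHLH100 runs from 1.91 to 20.1 CPM within kale.

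**Figure D2:**
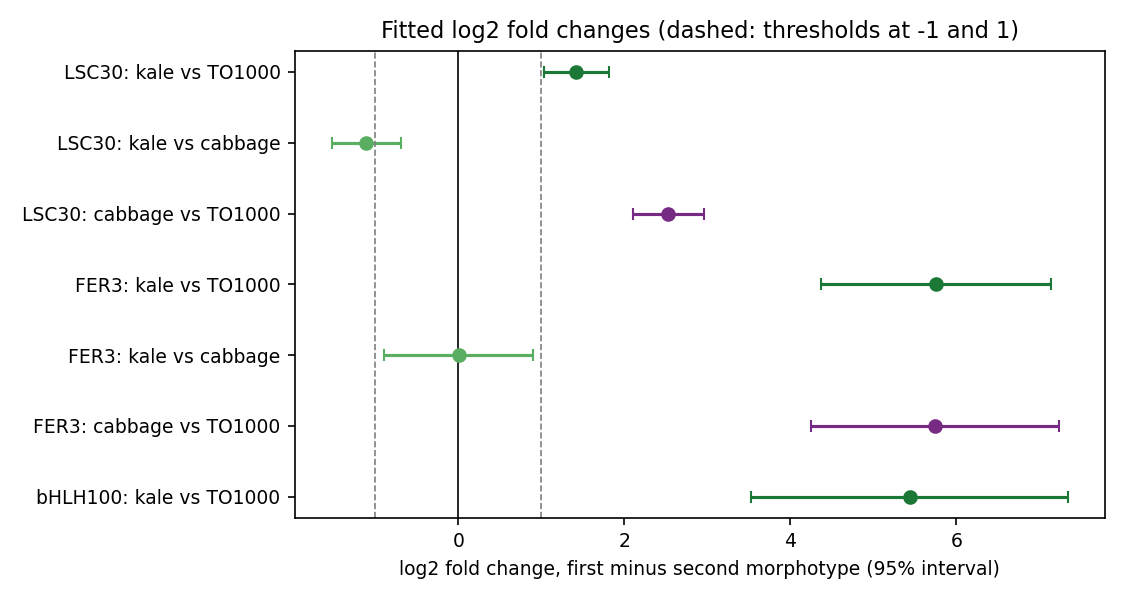
Fitted log2 fold changes of the iron genes between morphotypes, as points with 95% intervals, with dashed lines at -1 and 1. The interval of LSC30 in kale–cabbage (-1.52 to -0.69) crosses the threshold and that of FER3 in kale–cabbage (-0.89 to 0.90) is centred on 0. Comparisons of bHLH100 with cabbage, which had 0 counts, are not drawn because their fold has no upper limit.

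Taking the genes against each other within a library removes library size from the comparison, and gene length cancels when the same ratio is compared between libraries. For each bHLH100 count there were 2.97, 15.4 and 28.8 LSC30 counts in kale replicates 1, 2 and 3. The counting intervals of kale replicate 1 (2.45 to 3.60) and replicate 2 (10.5 to 23.5) were apart, whereas those of replicates 2 and 3 (14.3 to 67.4) overlapped. TO1000 had 71 LSC30 counts per bHLH100 count in replicate 1 (19.3 to 592), 103.5 in replicate 2 (28.3 to 860) and at least 47.3 in replicate 3. In cabbage the ratio was at least 116 and at least 297. The ratio of the storage gene to the regulator in kale replicate 1 lay below all other values, with an interval apart from theirs. The values of kale replicates 2 and 3 also lay below those of TO1000 and cabbage, but their intervals overlapped that of TO1000 replicate 1, and that of kale replicate 3 overlapped TO1000 replicate 2 and reached past the bound of replicate 3.

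FER3 counts per bHLH100 count were 0.459, 0.893 and 2.75 in the kale libraries, and at least 5.33 and 13.7 in cabbage. In TO1000 both genes had at most 2 counts in a library, so that their ratio was not resolved there. The ratio of LSC30 to FER3 counts was also compared between libraries: it was 21.8 in both cabbage libraries, with counting intervals of 13.2 to 38.5 and 15.9 to 30.5. It was 6.46, 17.3 and 10.5 in kale, and 71, at least 69 and at least 47.3 in TO1000. The kale libraries all lay below cabbage in this ratio and the TO1000 libraries all above it, although the intervals of kale replicate 2 (11.5 to 27.0) and of TO1000 replicate 1 (19.3 to 592) held both cabbage values.

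Across libraries these ratios were compared as log2 values with 0.5 counts added to each gene. The difference in mean log2 ratio of LSC30 to bHLH100 was -3.37 for kale–TO1000 and -6.71 for kale–cabbage. For LSC30 to FER3 it was -4.19 for kale–TO1000 and -1.04 for kale–cabbage. The 2-sided exact permutation p was 0.1 or 0.2 in 8 of the 9 comparisons made and 0.6 for FER3 to bHLH100 in kale–TO1000, and 0.18 to 0.6 after Benjamini-Hochberg adjustment. The smallest p that 3 libraries against 3 or 2 can give is 0.1, so no ratio could pass a threshold of 0.05.

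**Figure D3:**
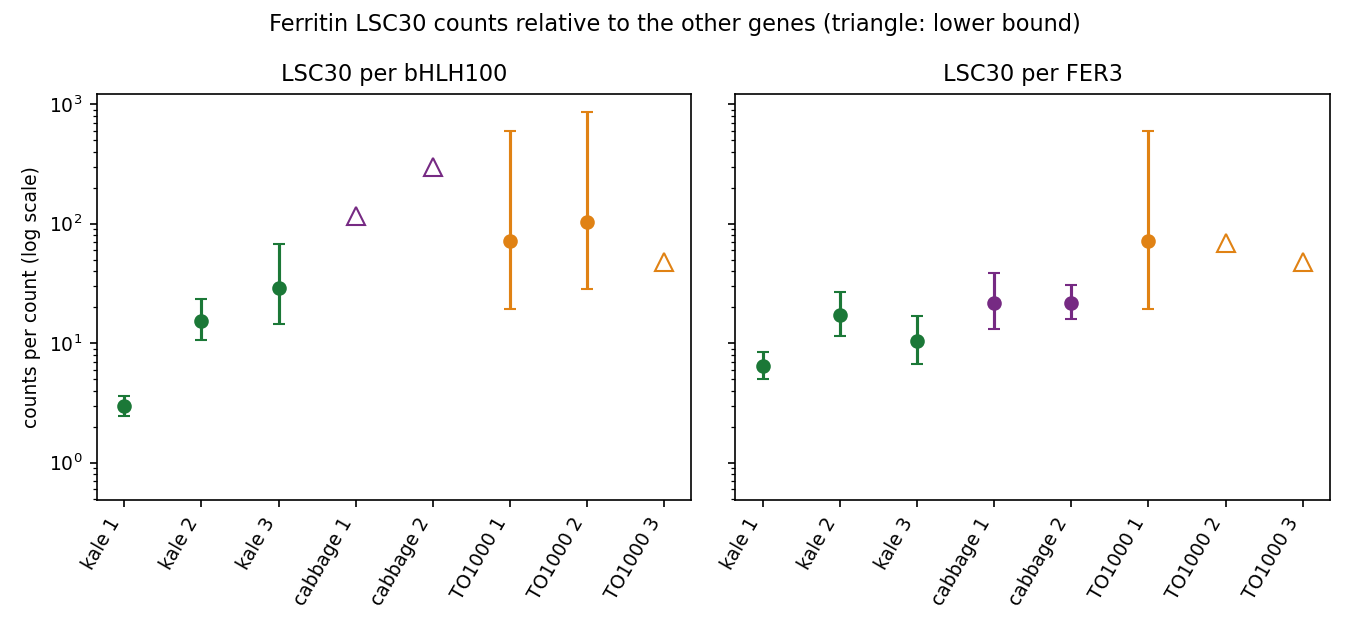
LSC30 counts per bHLH100 count and per FER3 count in each library, on a log axis. Points carry 95% counting intervals, and open triangles are lower bounds where the denominator had 0 counts. In kale the ratio to bHLH100 runs from 2.97 to 28.8, below the TO1000 points at 71 and 103.5 and the cabbage bounds at 116 and 297.

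The spread among kale libraries differed greatly between the iron genes. The range over the 3 kale libraries, in log2 CPM with a prior count of 2, was 0.49 for LSC30, 0.98 for FER3 and 3.18 for bHLH100, against a median of 0.55 over all tested genes. Only 74 genes, 0.263% of those tested and bHLH100 among them, had so wide a range in kale. The biological coefficient of variation estimated by edgeR over all morphotypes was 0.159 for LSC30, 0.263 for FER3 and 0.521 for bHLH100, with a common value of 0.188. For bHLH100 only 1.14% of genes had a larger value, while 71.6% were more variable than LSC30.

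The kale library that was high differed as well. bHLH100 and FER3 were both highest in kale replicate 1, and LSC30 was highest in kale replicate 2. The FER3 interval of kale replicate 1 (7.14 to 11.7 CPM) did not overlap that of replicate 2 (2.90 to 6.62 CPM) but overlapped that of replicate 3 (3.30 to 7.96 CPM). Among the 73 other genes with a kale range at least that of bHLH100, 71 were highest in kale replicate 3 and 2 in kale replicate 1. Over all tested genes, kale replicate 1 was the highest kale library for 33.4%, replicate 2 for 30.9% and replicate 3 for 35.7%, and kale replicates 1 and 2 were the closest pair of kale libraries (distance 93.2, against 113.6 for 1 and 3 and 106.9 for 2 and 3). Kale replicate 1 also held the highest summed level of 7 young organ markers in kale, 52.7 CPM against 39.3 and 36.3. The members did not go together: ANT, NGA1, ASL6 and one REVOLUTA copy (Bo7g021280) were highest in kale replicate 1. GRF3, GRF4 and the other REVOLUTA copy (Bo9g130730) were highest in kale replicate 3. The part of these markers in the bHLH100 level was not tested.

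**Figure D4:**
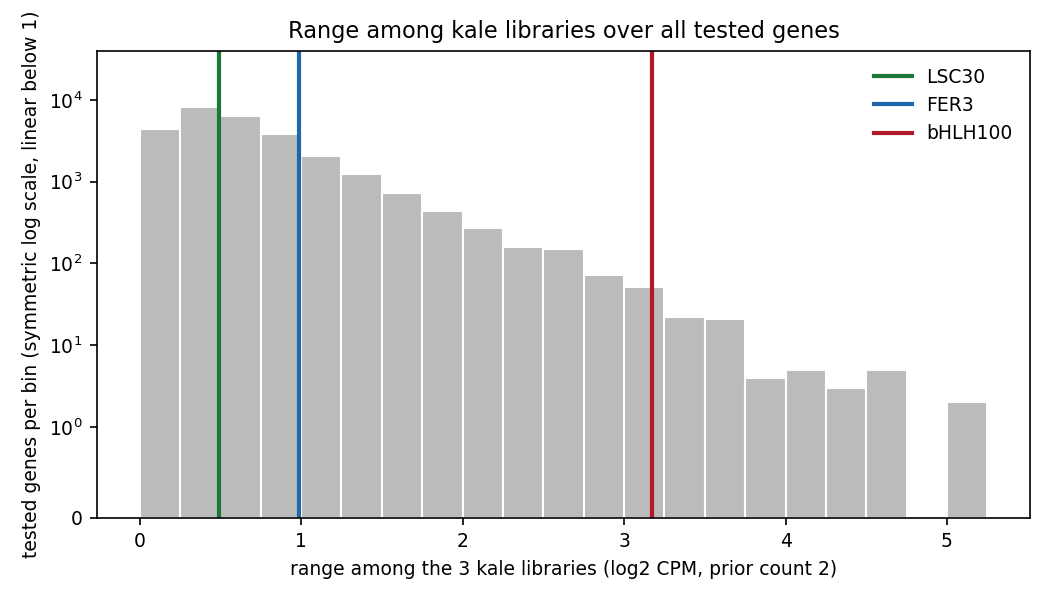
Number of tested genes by their range over the 3 kale libraries, in log2 CPM with a prior count of 2, on a symmetric log axis of gene numbers. Vertical lines mark LSC30 (0.49), FER3 (0.98) and bHLH100 (3.18), and only 74 of the 28126 genes reach the range of bHLH100.

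Genes whose profile was most like that of each iron gene were found by the root mean square difference of log2 CPM over the 8 libraries, each profile centred on its own mean. For LSC30 the nearest of all tested genes was Bo7g005560 (0.16), at 253 and 223 CPM in cabbage, 107, 121 and 83.5 CPM in kale, and 44.9, 46.2 and 36.6 CPM in TO1000. For FER3 it was Bo00846s030 (0.32), which had 1 count in TO1000 against 70, 37 and 34 in kale. For bHLH100 it was Bo4g112590 (0.41), with 132, 17 and 3 counts in kale replicates 1, 2 and 3 and 1 count in all other libraries together. That gene was 1 of the 2 wide-ranging genes that were highest in kale replicate 1, which follows in part from its choice by likeness to bHLH100. The reference table used here paired none of these identifiers with a name.

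Among 67 tested candidate genes of the study's own list, the nearest to LSC30 was PID, a protein kinase that guides auxin transport (0.52, rank 530 among all genes). FER3 was nearest to FLC, the floral repressor that acts in vernalization (0.72, rank 171). FLC had 121, 83 and 66 counts in kale, 15 and 44 in cabbage and 6 to 7 in TO1000. bHLH100 was nearest to one copy of REVOLUTA, a homeodomain leucine zipper regulator of leaf polarity and meristems (Bo7g021280, 0.71, rank 13), which was counted 70, 32 and 19 times in kale and once outside it. Between the iron genes themselves the difference was 1.18 for the ferritins, 2.21 for LSC30 and bHLH100, and 2.02 for FER3 and bHLH100. The candidates above were the nearest of 67, from a list drawn from these libraries, so they give no measure for these fixed pairs.

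The other 10 nutrition genes of the list, which the study relates to vitamins C and B1, calcium and plant protein, are given here as context. The study had listed them as DEGs of kale only, from these same libraries, and the ferritins as DEGs shared by all morphotypes, so the calls of this paragraph follow that choice and nothing is read from them. All 10 were DEGs against TO1000 and against cabbage: kale was the higher side for 3 and the lower side for 7 each time, where 27.7% and 25.7% of all tested genes were called. They had a median log2 difference of -1.72 in kale–TO1000 and -2.43 in kale–cabbage. The medians over all tested genes were -0.0028 and 0.055. The genes higher in kale were VTC5, an enzyme of vitamin C synthesis, THIC, an enzyme of vitamin B1 synthesis, and one gene labelled RuBisCO (Bo6g034560). In cabbage–TO1000, where 26.2% of all tested genes were called, 9 of the 10 were not called and VTC5 was lower in cabbage (edgeR adjusted p = 0.0445).

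VTC5 resembled bHLH100 in the order of its morphotype means but not in its spread. It had 91, 111 and 74 counts in the kale libraries, 1, 6 and 3 in TO1000 and 0 in both cabbage libraries. Its kale levels, 12.5 to 19.9 CPM, spanned 1.59-fold, against 10.5-fold for bHLH100. THIC reached 772 ± 110 CPM (SD, n = 3) in the kale libraries. Its cabbage mean of 260 ± 18.2 CPM (SD, n = 2) was not distinguished from its TO1000 mean of 243 ± 2.69 CPM (SD, n = 3; edgeR adjusted p = 0.708), the comparison in which LSC30 differed most.

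Levels of markers of the tissues in the samples also differed between morphotypes, where 27.7% of all tested genes were called in kale–TO1000 and 25.7% in kale–cabbage. Summed levels of 6 trichome genes were 82.5 to 112 CPM in kale, 42.7 to 55.1 in cabbage and 54.9 to 56.5 in TO1000. Of these, 5 were called higher in kale in both kale comparisons and EGL3 was called lower, by -2.11 against TO1000 and -1.88 against cabbage on the log2 scale. The 7 young organ markers summed to 36.3 to 52.7 CPM in kale, 60.8 to 64.4 in cabbage and 65.8 to 76.7 in TO1000, with 2 of the 7 at 0 in both cabbage libraries and in TO1000 replicates 1 and 2. That sum also joined opposite changes, since 3 of the 7 (NGA1 and both copies of REVOLUTA) were called higher in kale in each kale comparison, 3 were called lower and 1 was not called. The 2 genes labelled RuBisCO, which by the study's text encode chaperonin subunits that bind the RuBisCO large subunit and are weak leaf markers, summed to 11.2 to 17.2 CPM in kale, 12.7 to 16.1 in cabbage and 10.7 to 10.9 in TO1000. Bo6g034560 was called higher in kale (3.87 against TO1000 and 2.81 against cabbage on the log2 scale) and Bo04491s010 lower (-1.34 and -1.72). The floral gene AP1 was at 5.26 to 6.74 CPM in kale and at most 0.168 elsewhere. All but ANT were taken from the study's list, and the study's text names ANT with its figure of kale DEGs. Both were drawn from these libraries, so the calls of all these markers follow that choice. The part of these markers in the differences of the iron genes was not tested.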

How the data were processed

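Total RNA of pooled shoot tips was turned into PCR-amplified cDNA and sequenced. After trimming with Cutadapt 2.4, the authors used STAR to map reads onto the TO1000 genome, and they deposited raw counts per gene. The strand setting was not given in the sources used here, and no molecular identifiers were used, so intervals cover counting error only. Per the study's methods a further cabbage library was dropped for low quality, and it was not analysed here.

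Counts were tested in R 4.3.3 with edgeR 4.0.16: filterByExpr (minimum count 10, minimum total 15) kept 28126 genes, TMM factors scaled the libraries, and 1 quasi-likelihood fit over all 8 libraries held morphotype as the only term. Benjamini-Hochberg adjustment ran over the 3 comparisons together, with thresholds of 0.05 and a log2 fold change of 1. CPM are relative to TMM-scaled totals. Gene lengths were not at hand, so different genes were not ranked by level, and ratios between genes were compared only across libraries. Ratios within a library were planned without a pseudocount, but 0 counts left them undefined, so 0.5 counts were added. A floor of 3 counts stood in for groups and libraries at 0, and figures taken against it carry no error of the other side. The fit was checked on simulated counts. Deviations of same-numbered libraries correlated with r from -0.12 to 0.20 in 7 pairs, against -0.17 to 0.17 for different numbers. The values of the cabbage libraries mirror each other, so these r are not independent and cannot exclude an effect shared by a number. Numbers were not used as pairs in the main fit.

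The 3 genes, the marker lists and the rule for similar genes (the nearest of all tested genes and of the study's candidates) were chosen with earlier results of these data known. Alternatives were DESeq2 1.42.0, other scalings and filters, a 2-fold test, a replicate block, thinned libraries and leaving out each library. None of the gene identifiers matched the RefSeq table (0 matches), so coordinates were not used here. The replicates are pools of separate plants, and p-values measure the spread between pools of 1 accession.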

Additional observations from a re-analysis of the deposited data

How the results depend on the processing

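Of 164 values of the gene comparisons under the alternatives, 158 kept their direction and their side of the threshold. All 67 values of the ratio comparisons kept their direction, in a design where no ratio could pass a threshold. LSC30 in kale–cabbage lost its call under the 2-fold test (-1.11, adjusted p = 0.486) and without cabbage replicate 2, and leaving out 1 library at a time gave -1.25 to -0.97. FER3 in kale–cabbage, never called, changed sign with no count filter (-0.0105), with a mean of at least 10 counts (-0.0038), and without cabbage replicate 1 or kale replicate 1, over a range of -0.39 to 0.23 when 1 library was left out. The cause was not tested. Thinning every library to 3016197 counts lowered the FER3 differences to 4.92 in kale–TO1000 and 4.58 in cabbage–TO1000, both still called. For bHLH100, leaving out kale replicate 1 or 2, or thinning, removed it from the genes passing the filter and gave no value. Fits on the genes of the full fit, chosen after seeing the data, kept both kale calls: 3.99 against TO1000 without kale replicate 1 and 5.72 without kale replicate 2. Over all alternatives its adjusted p ran from 1.54e-23 to 0.00177 in kale–TO1000, from 4.27e-16 to 0.0295 in kale–cabbage and from 0.175 to 0.954 in cabbage–TO1000, where a fit of only those 2 morphotypes also filtered it out.

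With the replicate number as a block, the log2 difference of bHLH100 in kale–TO1000 was 5.26, no call of an iron gene changed, and 7710, 6728 and 6805 genes were called in kale–TO1000, kale–cabbage and cabbage–TO1000, against 7791, 7232 and 7380 without it. The 2-fold test called 4277, 3360 and 3519 genes. Dropping the count filter moved the median log2 difference of all genes by up to 0.40, the other settings by up to 0.082. Depth limits bHLH100 in cabbage and TO1000 and FER3 in TO1000, where all calls against them rest on 4 counts or fewer per morphotype.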
